A study of Homo sapiens with 6 samples.

Results

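The nuclear receptors are a family of transcription factors that bind DNA and, for many members, a small lipophilic ligand. The deposited table was searched for 46 genes of this family by gene symbol, and all 46 were found, at 47 of its 74852 loci, since ESR1 was listed at a pair of loci. The question addressed here was which of these receptors were expressed in MDA-MB-231 cells, and which differed after silencing of SAM68. MDA-MB-231 is a human breast cancer cell line representative of the triple-negative (TNBC) subtype, which lacks the estrogen and progesterone receptors. Cells were transfected with a no-targeting control siRNA (si-CTRL, 3 libraries) or with siRNA against SAM68 (si-SAM68, 3 libraries), and cells of both groups went through the same repeated transfection. By the sample labels the cells were harvested 24 h after the last transfection, whereas the methods of the study give a different time, so that the interval is uncertain. Both groups are 1 cell line, and the methods of the study describe a harvest in triplicate without saying whether these were separate cultures, so that p-values measure the spread between these libraries, which may be technical.

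Nuclear receptors share a DNA-binding domain of zinc fingers, and in most members a ligand-binding domain that exchanges corepressors for coactivators when the ligand is bound. Steroid receptors such as the glucocorticoid receptor bind DNA as homodimers, whereas receptors for retinoic acid, thyroid hormone, vitamin D, oxysterols and fatty acids pair with a retinoid X receptor (RXR). Many other members are orphan receptors without a generally accepted ligand, and among these NR2E3 (also called PNR) is known from the retina, where it acts in rod photoreceptors and represses genes of cones. In breast tumors the estrogen receptor alpha (ESR1) and the progesterone receptor (PGR) define the luminal subtypes.

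The sense strands of the 4 siRNAs of the SAM68 pool are shown because they define the perturbation, and because the receptors were searched for matches to them. Capitals mark bases 12 to 18, which are identical to an mRNA site pairing with the seed (bases 2 to 8) of the guide strand.
siSAM68_1: gcacccauaugGACGUUAu
siSAM68_2: gaaagagcgagUGCUGAUa
siSAM68_3: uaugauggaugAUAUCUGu
siSAM68_4: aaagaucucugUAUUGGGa
Each of the 4 sequences was found whole in the coding sequence of at least 1 KHDRBS1 transcript of GENCODE 29. KHDRBS1 encodes Sam68, and its normalized read count fell to 4.13% of the si-CTRL mean in si-SAM68 cells (log2 fold change -4.60, standard error 0.083, limma).

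The libraries held between 52625492 and 82568487 reads on the listed loci. In si-SAM68 replicate 2 an rRNA precursor locus took 15.1% of the reads, against 1.83% to 3.17% in the other libraries. Values are normalized read counts, that is, reads divided by the size factor of the library. Of all loci, 18849 had a mean across libraries of 10 or more. These entered the limma test, after 1 was added and the log2 taken, which understates changes of weakly expressed genes. The identity of the cells was checked with markers. The 7 markers of mesenchymal triple-negative lines (VIM, CD44, AXL, CAV1, SPARC, EGFR and ZEB1) were all tested and summed to between 364825 and 442683 normalized reads in si-CTRL and between 413613 and 437078 in si-SAM68 libraries. Of 8 luminal or epithelial genes, ESR1, CDH1 and EPCAM stayed under a mean of 10 and PGR was at 0, whereas FOXA1 (log2 fold change 0.64), ERBB3 (0.99) and KRT19 (0.37) were higher in si-SAM68 cells at an adjusted p under 0.05. GATA3 was tested and not called (log2 fold change -0.13, adjusted p = 0.67). The summed luminal or epithelial level was 2959 to 3306 in si-CTRL and 4105 to 4606 in si-SAM68 libraries, and its part in the changes of the receptors was not tested. The locus listed as KRT19 spans 263095 bases and gave 1460 ± 65.1 (si-CTRL) and 1892 ± 162 (si-SAM68) normalized reads of this sum. At this extent its reads cannot be assigned to KRT19 with certainty. Among the mesenchymal genes CAV1 was higher (0.62) and ZEB1 lower (-0.63). KRT19 was called in 1 of 6 fits with a library left out, that without si-CTRL replicate 1, and ZEB1 was lost without si-SAM68 replicate 1 (adjusted p = 0.052). The 4 haematopoietic markers summed to at most 13.8 normalized reads in any library, and the 3 endothelial markers to 49.4 to 76.2 in si-CTRL and 31.3 to 35.7 in si-SAM68 libraries. In bulk RNA, fewer cells with a transcript and less of that transcript per cell cannot be told apart.

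Of the 47 receptor loci, 32 passed the minimum and were tested, and each of these 32 had a mean of at least 10 in both groups. To compare levels between genes, normalized read counts were divided by the length of the principal transcript, which gives normalized reads per kilobase. In si-CTRL cells 7 receptors reached 500 or more, 11 lay between 100 and 500, and 14 were under 100. PPARG, a fatty acid receptor known as the master regulator of fat cell differentiation, had the highest level with 2191 ± 248 (SD, n = 3) normalized reads per kilobase. NR1H2 (LXRβ), a sensor of oxysterols, followed with 1473 ± 251, and at this length its highest library did not reach the lowest library of PPARG. NR2C2 (866 ± 122), RXRA (724 ± 20.8) and PPARD (656 ± 56.2) came next and lay within 2 SD of NR2C2 of each other. The NR2C2 locus shares 7029 bases with that of MRPS25 (5038 ± 225 normalized reads in si-CTRL) and 858 with that of FGD5-AS1 (22831 ± 3472). Use of strand in counting is not given, so reads in these stretches cannot be assigned with certainty. RXRB (609 ± 12.2) and NR1D2 (604 ± 55.8) were level with each other. RXRG, the remaining RXR, was at 0 in every library. NR3C1, the glucocorticoid receptor, had 408 ± 75.1 normalized reads per kilobase, against 105 ± 7.76 for its close relative NR3C2, the mineralocorticoid receptor. At the lower end were RORA (15.8 ± 1.61), NR2E3 (14.3 ± 1.46) and NR4A2 (12.2 ± 0.17), of which RORA and NR2E3 differed by about 1 SD. With the union of all exons as length, PPARG (894), NR1H2 (784) and PPARD (555) had the highest values and NR2E3 the lowest of the 32. NR2C2 (183) moved from rank 3 to rank 12 and RXRA (121) from rank 4 to rank 14, and both fell under 500, as did RXRB (452). The distance between PPARG and NR1H2 and the number at 500 or more thus depend on the length used.

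**Figure D1:**
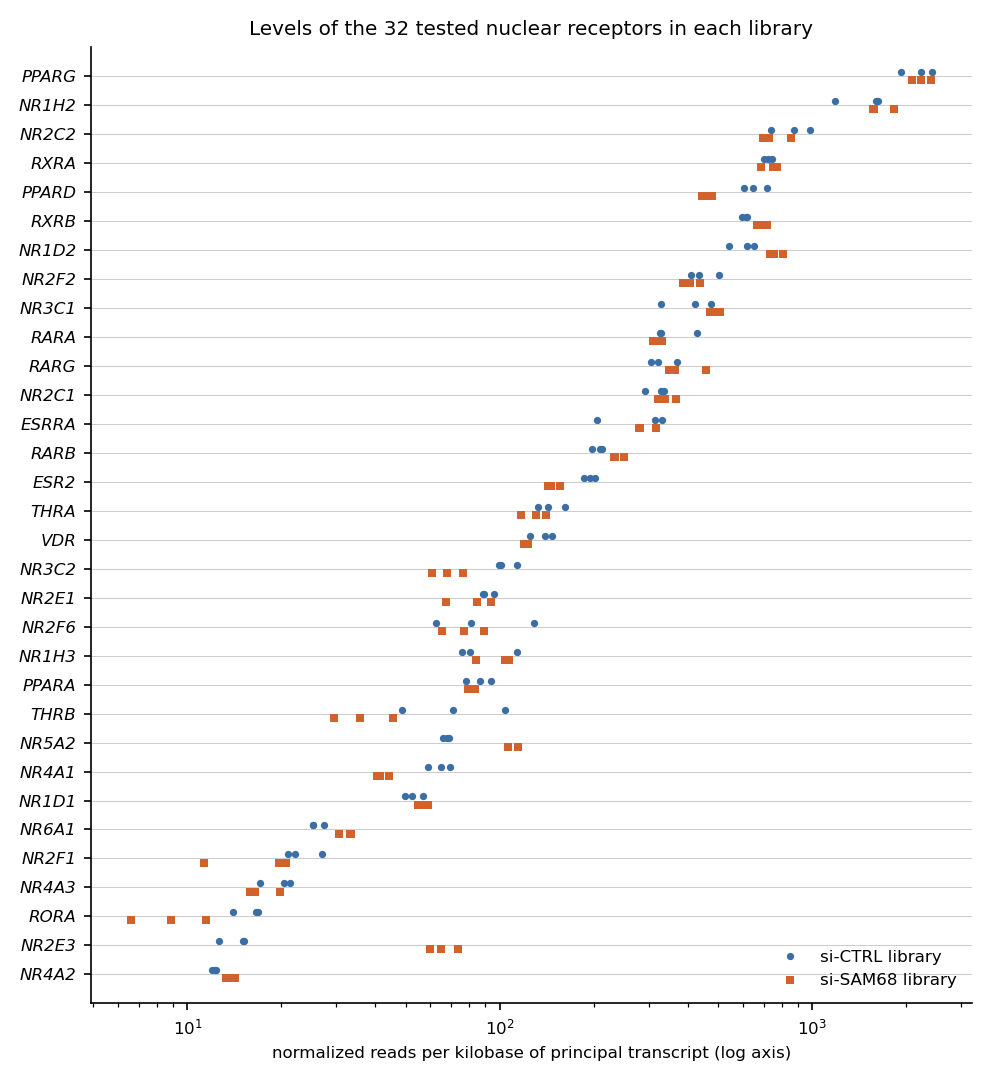
Normalized reads per kilobase of the principal transcript (log axis) of the 32 tested nuclear receptors, sorted by their si-CTRL mean, with a point for each of 3 si-CTRL libraries and a square for each of 3 si-SAM68 libraries. PPARG and NR1H2 lie highest in both groups, and NR2E3 is the receptor whose groups lie farthest apart, from 14.3 on average in si-CTRL to 66.1 in si-SAM68 cells.

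Silencing of SAM68 was accompanied by changes of 8 of the 32 tested receptors in both directions. NR2E3, NR5A2 and NR1D2 were higher after silencing, and PPARD, NR3C2, NR4A1, RORA and ESR2 were lower (limma, Benjamini-Hochberg adjusted p under 0.05 over all 18849 loci). Of all loci tested, 10.7% had such a call, 4.47% as higher and 6.23% as lower. With a minimum mean of 50, 9 of 31 receptors and 2165 of 15034 loci were called. The receptors were chosen with earlier results of these data known, so these shares are not an independent comparison. The median log2 fold change of the 32 receptors was -0.03, against 0.01 for all loci tested, and 16 receptors had a positive and 16 a negative value. By the thresholds of the study, a fold change of 1.5 or more with an unadjusted p not above 0.05, 6 receptors were called: NR2E3 and NR5A2 as higher, and NR3C2, NR4A1, RORA and THRB as lower. These thresholds were met by 7.67% of all loci. For 15 of the 32 receptors all libraries of 1 group lay above all libraries of the other (7 above and 8 below si-CTRL), as did 33.9% of all loci tested. The number of receptors called at the adjusted p depended on single libraries, with 4 receptors called when si-CTRL replicate 3 or si-SAM68 replicate 1 was left out, 5 when si-SAM68 replicate 2 was, and 2 when si-SAM68 replicate 3 was. NR2E3 and NR5A2 were called in each of these fits. The reported fit takes the libraries as unpaired. With the replicate number as a block, which pairs them, 7 receptors were called, without ESR2 and NR4A1 and with THRB.

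**Figure D2:**
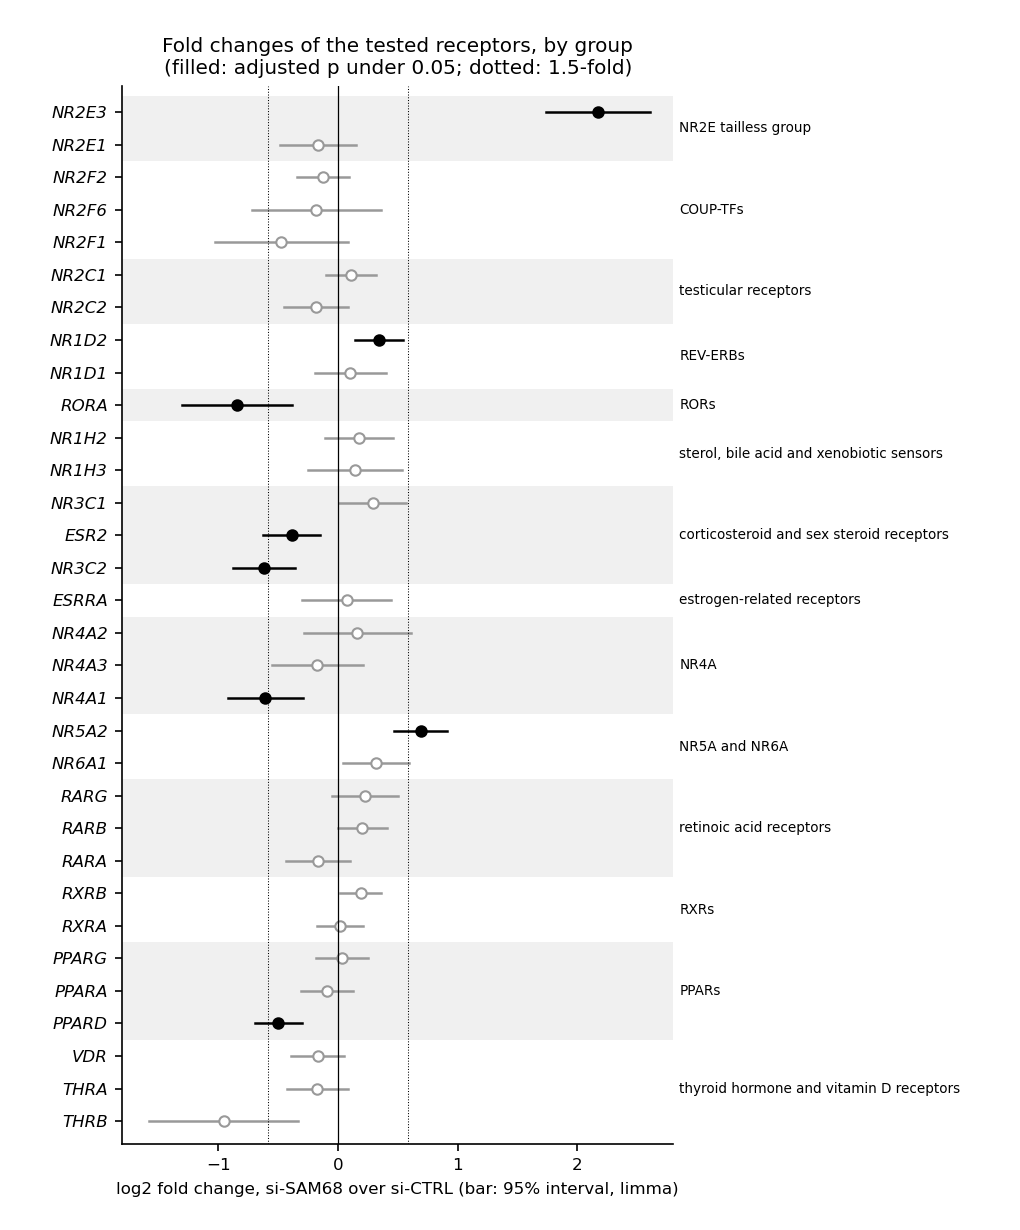
Log2 fold change (si-SAM68 over si-CTRL) of the 32 tested receptors with its 95% interval from limma, grouped by receptor class, with filled points for an adjusted p under 0.05 and dotted lines at a 1.5-fold change. NR2E3 stands apart with an interval from 1.74 to 2.60, and the other 31 intervals lie between -1.58 and 0.91.

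NR2E3, the orphan receptor of photoreceptors, showed the largest fold change of the tested receptors. The NR2E3 locus (GSHG0009983) spans bases 72084976 to 72110559 of chromosome 15 (hg19). Its normalized read counts were 30.0, 25.2 and 30.4 in si-CTRL replicates 1 to 3, and 147, 120 and 130 in si-SAM68 replicates 1 to 3. The lowest si-SAM68 library was thus well above the highest si-CTRL library. Behind these values stood 24, 26 and 32 reads in si-CTRL and 146, 130 and 116 reads in si-SAM68 libraries. The mean rose from 28.5 ± 2.91 to 132 ± 13.9 (SD, n = 3), a ratio of 4.63. The log2 fold change was 2.17 (standard error 0.19, 95% interval 1.74 to 2.60, adjusted p = 0.00031 by limma). A two-sided exact permutation test of the 6 libraries, taken as unpaired, gave p = 0.1, the smallest value that 3 libraries against 3 allow. The same value was found for each of the other receptors past a threshold. NR2E3 was called in all 17 alternatives, and with 1 library left out its log2 fold change stayed between 2.09 and 2.24. Its level remained low in si-SAM68 cells, with 66.1 ± 6.97 normalized reads per kilobase. NR2E1 (TLX), the closest relative of NR2E3 and a factor of neural stem cells, had 307, 287 and 283 normalized reads in si-CTRL and 300.2, 216 and 271 in si-SAM68 libraries, so that the groups overlapped (log2 fold change -0.17, 95% interval -0.48 to 0.15).

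**Figure D3:**
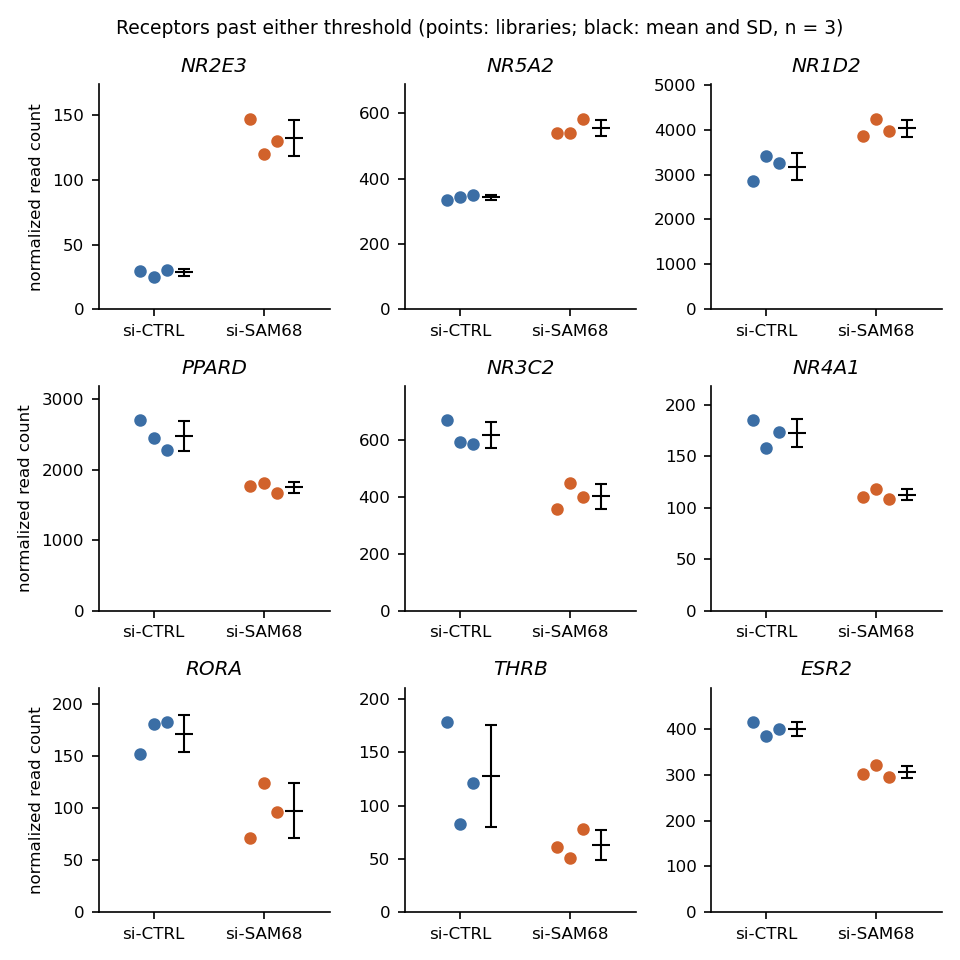
Normalized read count of the 9 receptors past either threshold, with a point for each library, the mean and its SD (n = 3) in black, and axes that start at 0. No panel shows an overlap between si-CTRL and si-SAM68 libraries, and the si-CTRL libraries of THRB run from 83.3 to 179.

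The loci around NR2E3 were compared with it. Of 9 other loci within 500 kb and with a mean of at least 10, only THSD4 was called (adjusted p = 0.010 by limma), and in the opposite direction. THSD4, which encodes a protein of microfibrils, ends 9254 bases before the NR2E3 locus starts. Its normalized read counts were 2601, 1909 and 1780 in si-CTRL and 1160, 1368 and 1120 in si-SAM68 libraries, without overlap between the groups. The log2 fold change of THSD4 was -0.77 (standard error 0.14), and its call was lost without si-SAM68 replicate 1 or replicate 3, with adjusted p up to 0.067. On the other side MYO9A, which encodes an unconventional myosin, had a log2 fold change of 0.31 (95% interval 0.06 to 0.57, adjusted p = 0.11). SENP8 (0.15), PKM (0.18) and the locus joining CELF6, HEXA and PARP6 (0.20) did not pass the test. The other 4 loci carry no symbol, and the nearest of them, 4081 bases beyond NR2E3, had a log2 fold change of 0.02. In GENCODE 29 (GRCh38) NR2E3 and THSD4 are on the same strand, and 1 transcript of NR2E3 starts 17916 bases before the principal one, at 9254 bases from the end of THSD4. The deposited value sums the whole locus, so that it does not say which of these transcripts rose.

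**Figure D4:**
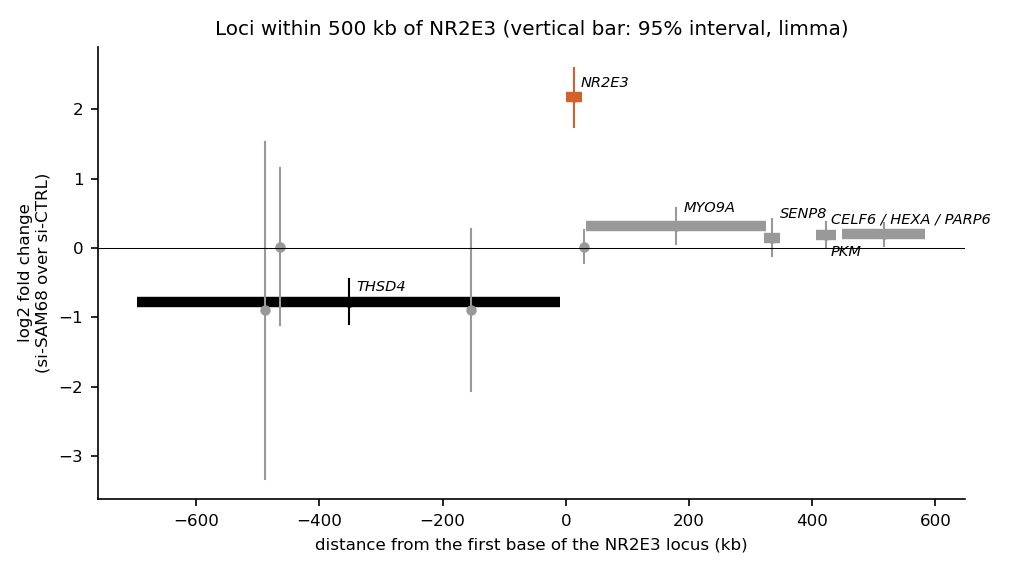
Log2 fold change of NR2E3 and of the 9 other loci with a mean of at least 10 within 500 kb, against the distance in kb from the first base of the NR2E3 locus; horizontal bars show the extent of each locus and vertical bars the 95% interval. NR2E3 (2.17) is above 0 between THSD4 on its left (-0.77) and MYO9A on its right (0.31), and the loci without a label have no gene symbol.

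The promoters of the 3 receptors that were higher are shown as the 250 bases before a start of RefSeq (GRCh38.p14, 5′ to 3′ on the strand of the gene). Capitals mark the hexamers AGGTCA, bound by many nuclear receptors, AGAACA, bound by steroid receptors of the glucocorticoid type, and CACGTG, the E-box bound by the CLOCK and MYC families, on either strand. NR2E3 is shown at its start on chromosome 15 (chr15:71810304-71810553, + strand), NR1D2 at the start whose window holds E-boxes (chr3:23945871-23946120, + strand), and NR5A2 at the start farthest upstream (chr1:200027460-200027709, + strand).
NR2E3: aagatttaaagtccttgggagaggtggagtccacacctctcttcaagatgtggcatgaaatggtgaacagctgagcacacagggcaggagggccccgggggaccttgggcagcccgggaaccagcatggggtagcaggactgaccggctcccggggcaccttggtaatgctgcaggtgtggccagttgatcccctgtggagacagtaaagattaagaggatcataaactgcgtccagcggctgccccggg
NR1D2: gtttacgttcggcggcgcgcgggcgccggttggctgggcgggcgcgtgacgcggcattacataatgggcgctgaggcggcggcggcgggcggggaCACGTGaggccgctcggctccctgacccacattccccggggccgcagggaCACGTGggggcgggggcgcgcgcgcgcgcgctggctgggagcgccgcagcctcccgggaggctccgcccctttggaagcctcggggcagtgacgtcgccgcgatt
NR5A2: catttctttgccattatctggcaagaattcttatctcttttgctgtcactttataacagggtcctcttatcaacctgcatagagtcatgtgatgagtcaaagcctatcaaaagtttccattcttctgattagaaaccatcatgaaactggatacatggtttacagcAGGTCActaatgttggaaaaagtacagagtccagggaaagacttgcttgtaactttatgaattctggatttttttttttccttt
The window of NR2E3 held none of the 3 hexamers. That of NR1D2 held CACGTG at positions -155 and -105 relative to the start, and that of NR5A2 held AGGTCA at position -84. The windows were chosen with their matches known. Of the windows not shown, the other start of NR1D2 held none of the hexamers, and the other start of NR5A2 held AGAACA at position -183 and no AGGTCA. Windows of 300 bases (250 before to 50 after a start) were found for 41 of the 46 receptor genes, 96 in all, of which several overlap. AGGTCA was in 16.7% of them and in 13.8% of all 35116 RefSeq windows, AGAACA in 14.6% and 14.8%, and CACGTG in 9.38% and 7.26%. A match of letters is a description of the window and not a binding site.

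NR5A2 (LRH-1), an orphan receptor of the pancreas, liver and ovary that binds DNA as a monomer, was the other receptor that rose by more than 1.5-fold. Its locus spans 199996730 to 200146548 of chromosome 1 (hg19). Normalized read counts were 334, 345 and 350 in si-CTRL and 540, 540 and 583 in si-SAM68 libraries. The libraries of each group were close to each other, with means of 343 ± 8.26 and 554 ± 24.9 (SD, n = 3). This was a rise of 0.69 on the log2 scale (standard error 0.10, 95% interval 0.47 to 0.91, adjusted p = 0.0032 by limma), and NR5A2 was called in all 17 alternatives. NR6A1 (GCNF), an orphan receptor of germ cells placed near this group, moved from 183 ± 8.64 to 228 ± 11.6, again without overlap, but did not pass the adjusted test (log2 fold change 0.32, adjusted p = 0.13 by limma). NR5A1 (SF-1), the steroidogenic relative of NR5A2, had at most 7.50 normalized reads in any library.

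NR1D2 (REV-ERBβ) is a repressor of the circadian clock that binds heme. The gene spans 23986751 to 24022109 of chromosome 3 (hg19). Its counts were 2848, 3415 and 3265 in si-CTRL and 3859, 4239 and 3975 in si-SAM68 libraries, so that every si-SAM68 library was higher. This was a 1.27-fold higher level, or 0.34 on the log2 scale with a standard error of 0.09 (adjusted p = 0.037 by limma). This call was lost without si-CTRL replicate 3 and without each of the si-SAM68 replicates (adjusted p 0.075 to 0.16). The first 1303 bases of its locus lie within that of NKIRAS1, which was not called (log2 fold change 0.02, adjusted p = 0.91). NR1D1 (REV-ERBα), present at a much lower level, had 147 ± 9.75 and 158 ± 5.49 normalized reads (log2 fold change 0.10, 95% interval -0.20 to 0.41). Its locus shares 4638 bases with that of THRA, whose level is higher (713 ± 70.4 in si-CTRL) and whose log2 fold change was -0.17. Use of strand in counting is not given, so reads in the shared stretch cannot be assigned with certainty.

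RORA activates the DNA elements that the REV-ERBs repress, and it was lower in si-SAM68 cells. The gene spans 60780483 to 61521502 of chromosome 15 (hg19). Its counts were 151, 180 and 183 in si-CTRL and 71.5, 124 and 96.1 in si-SAM68 libraries, in which replicate 1 was the lowest. RORA had a log2 fold change of -0.84 (standard error 0.21, 95% interval -1.30 to -0.38, adjusted p = 0.031 by limma). RORA was not called without si-CTRL replicate 2 or 3 or without si-SAM68 replicate 1 or 3 (adjusted p 0.067 to 0.11). An antisense transcript, RORA-AS1, lies in large part within the locus and was not called (log2 fold change -0.03, adjusted p = 0.93). RORB, a neural member, was detected in a single library, si-CTRL replicate 3, with 3.803 normalized reads.

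Among the receptors for fatty acids, PPARD was lower in si-SAM68 cells while PPARG and PPARA were not called. PPARD, a widely expressed activator of fatty acid oxidation, spans 35310335 to 35395968 of chromosome 6 (hg19). It had 2701, 2446 and 2280 in si-CTRL and 1768, 1809 and 1670.0 normalized reads in si-SAM68 libraries. PPARD had a log2 fold change of -0.50 (standard error 0.09, 95% interval -0.70 to -0.30, adjusted p = 0.0083 by limma), a change too small for the fold threshold of the study, and the call was lost without si-SAM68 replicate 3 (adjusted p = 0.054). PPARG had 4053 ± 458 and 4140 ± 288 normalized reads (log2 fold change 0.03, 95% interval -0.19 to 0.25). PPARA, the receptor of fasting in the liver, had 861 ± 80.5 and 807 ± 23.3 (log2 fold change -0.09, 95% interval -0.31 to 0.13).

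Of the steroid receptors, NR3C2 and ESR2 were lower. NR3C2, the receptor of aldosterone, spans 148999916 to 149363674 of chromosome 4 (hg19). It had 669, 593 and 587 normalized reads in si-CTRL and 359, 448 and 399 in si-SAM68 libraries. The log2 fold change was -0.62 (standard error 0.12, 95% interval -0.88 to -0.36, adjusted p = 0.011 by limma), and without si-SAM68 replicate 3 it was -0.62 with an adjusted p of 0.059. NR3C1 went in the other direction without passing the test, with 2383, 3463 and 3078 in si-CTRL and 3443, 3702 and 3645 in si-SAM68 libraries (log2 fold change 0.29, 95% interval 0.01 to 0.57, adjusted p = 0.17). The lowest si-SAM68 library of NR3C1 was below the highest si-CTRL library. ESR2, the estrogen receptor beta, spans 64550950 to 64805268 of chromosome 14 (hg19). It had 415, 384 and 400.2 normalized reads in si-CTRL and 301, 320.1 and 295 in si-SAM68 libraries (log2 fold change -0.39, standard error 0.11, adjusted p = 0.045 by limma). This call was lost with each of the 6 libraries left out (adjusted p 0.053 to 0.15) and with the replicate number as a block (0.075). The ESR2 locus shares 142218 bases with that of SYNE2, whose level is higher (2668 ± 209 in si-CTRL) and whose log2 fold change was 0.15. Whether strand was used in counting is not given in the sources used here, so reads in the shared stretch cannot be assigned with certainty. ESR1 had between 1.94 and 15.2 normalized reads at its first locus, and PGR was at 0 in every library.

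NR4A1 (NUR77), an immediate early receptor that responds to stress and growth factors, was lower as well. Its locus spans 52431498 to 52453290 of chromosome 12 (hg19). Normalized read counts were 185, 158 and 174 in si-CTRL and 111, 119 and 108 in si-SAM68 libraries. NR4A1 had a log2 fold change of -0.61 (standard error 0.14, 95% interval -0.92 to -0.29, adjusted p = 0.025 by limma). The call did not hold with the replicate block (adjusted p = 0.0504), nor without si-CTRL replicate 3 or without any of the si-SAM68 replicates (0.069 to 0.10). Its relatives NR4A2 (NURR1) and NR4A3 (NOR1), which respond to the same kinds of signal, were not called. NR4A2 had 42.3 ± 0.59 and 47.5 ± 1.58 normalized reads (log2 fold change 0.16), and NR4A3 had 112 ± 12.7 and 99.1 ± 11.98 (log2 fold change -0.17).

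THRB, the thyroid hormone receptor beta, passed the thresholds of the study and missed the adjusted one. It spans 24158647 to 24536313 of chromosome 3 (hg19), beyond NR1D2 and before RARB. Its counts were 179, 83.3 and 122 in si-CTRL and 61.5, 50.6 and 78.2 in si-SAM68 libraries, so that the groups did not overlap although si-CTRL libraries differed by more than 2-fold. THRB had a log2 fold change of -0.95 (standard error 0.28, 95% interval -1.58 to -0.33, unadjusted p = 0.0065 and adjusted p = 0.056 by limma). THRB passed the adjusted threshold in 4 of 17 alternatives, with the replicate block (0.042), without si-CTRL replicate 2 (0.018), with a minimum mean of 50 (0.049) and by DESeq2 (0.0082). In the other alternatives its adjusted p ran from 0.051 by edgeR to 0.17 without si-SAM68 replicate 2. On the same stretch of chromosome 3, NR1D2 was higher (0.34) and RARB had a log2 fold change of 0.21 (adjusted p = 0.18). THRA, the thyroid hormone receptor alpha, had 713 ± 70.4 and 633 ± 58.7 normalized reads (log2 fold change -0.17), and VDR, the vitamin D receptor, had 654 ± 53.9 and 580 ± 7.42 (log2 fold change -0.17, adjusted p = 0.31), in each case short of a call.

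RORA and THRB were also the receptors with the most matches to the siRNA seeds shown above. With 1 3′UTR per gene, the longest that GENCODE 29 lists, both held the 7 bases of siSAM68_2, siSAM68_3 and siSAM68_4, and no other tested receptor held matches to more than a pair of siRNAs. The 3′UTR was 9171 bases long for RORA and 5731 for THRB, against 301 for PPARG, and a longer one holds more matches by chance. PPARA, with 8376 bases, held none. The shares given next are not corrected for length. A match to at least 1 of the 4 seeds was found in 3 of 5 receptors called as lower (PPARD, RORA and ESR2), in 1 of 3 called as higher (NR5A2), and in 9 of 24 not called. Over all tested genes with a 3′UTR the share was 29.8%, and it was 40.6% for the 32 receptors. NR3C2, NR4A1, NR1D2 and NR2E3 held none. The part of these matches in the changes was not tested.

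The 3 retinoic acid receptors, RXRA and RXRB were expressed and none was called. RARA had 871 ± 143 normalized reads in control cells and 770 ± 27.5 after silencing (log2 fold change -0.17). The RARA locus shares 22169 bases with that of TOP2A, whose level is higher (20325 ± 3908 in si-CTRL) and whose log2 fold change was 0.36. As for ESR2, reads in the shared stretch cannot be assigned with certainty. RARB moved from 637 ± 23.8 to 735 ± 29.3 without overlap between the groups (log2 fold change 0.21, 95% interval 0.00044 to 0.41), and RARG had 984 ± 99.8 and 1153 ± 174 (0.22). The 95% interval of RXRA was -0.17 to 0.21 around a log2 fold change of 0.02. RXRB had 1771 ± 35.6 and 2021 ± 79.6 (log2 fold change 0.19, adjusted p = 0.15 by limma). Among the sterol sensors, NR1H2 had 2943 ± 501 and 3304 ± 295 (0.18) and NR1H3 (LXRα) 245 ± 57.3 and 268 ± 34.6 (0.15), with intervals that spanned 0.

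The COUP-TFs, the testicular receptors and ESRRA, all orphans, did not pass the test either. NR2F2 (COUP-TFII), at a locus that also holds MIR1469, had 2369 ± 261 and 2164 ± 130 normalized reads (log2 fold change -0.13). NR2F1 (COUP-TFI) moved from 89.7 ± 12.3 to 66.2 ± 19.7 without overlap between the groups (log2 fold change -0.47, 95% interval -1.03 to 0.08), where si-SAM68 replicate 3 was the lowest with 43.6. NR2F6 had 218 ± 82.5 and 185 ± 28.04 (log2 fold change -0.18), with a large spread in si-CTRL cells. NR2C1 (TR2) had 1317 ± 96.1 and 1418 ± 93.2 (0.11), and NR2C2 (TR4) had 2160 ± 305 and 1900 ± 213 (log2 fold change -0.18). As given above, the NR2C2 locus overlaps those of MRPS25 and FGD5-AS1. ESRRA, a regulator of mitochondrial genes, had 647 ± 156 and 667 ± 47.0 (log2 fold change 0.07).

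The other 15 receptor loci were below the minimum. NR1I3, RXRG, PGR and NR0B1 had no read in any library, as did the shorter ESR1 locus. A count of 0 allows up to 3 of the 396635406 reads of all libraries, by counting error alone. NR0B2, NR1H4, NR1I2, HNF4A, HNF4G, RORB, NR5A1, ESRRB, ESRRG and the longer ESR1 locus had a mean under 10 but reads in at least 1 library. HNF4A, NR1I2, NR1I3, NR1H4 and NR0B2, which are found in hepatocytes, were therefore at or near 0. This does not hold for NR5A2 and PPARA, also receptors of the liver, which had 343 ± 8.26 and 861 ± 80.5 normalized reads in si-CTRL cells. ESRRG had 2.50, 0 and 0 normalized reads in si-CTRL and 11.1, 3.68 and 8.94 in si-SAM68 libraries, and ESRRB had 8.75, 5.81 and 9.51 against 1.01, 3.68 and 2.23. The groups of both genes did not overlap, at levels of 0 to 11 reads, and neither was tested at the minimum used.

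Coregulators are the proteins through which receptors act, and they were listed together with chaperones of receptors. Of 34 tested genes of this list, 7 (20.6%) were called, against 10.7% of all loci. The calls were 3 of 15 coactivators, 2 of 11 corepressors and 2 of 8 chaperones. Of the 7, 2 were higher and 5 lower, against 4.47% and 6.23% of all loci, and the median log2 fold change of the 34 was -0.04. With a minimum mean of 50, 7 of the 34 and 2165 of 15034 loci were called. This list was chosen with earlier results of these data known, so the shares are not an independent comparison. KAT2B (PCAF), a histone acetyltransferase, fell from 1154, 986 and 1101 to 621, 623 and 706 normalized reads (log2 fold change -0.73, standard error 0.10, adjusted p = 0.0027 by limma). PNRC1 (0.37, adjusted p = 0.014) and PNRC2 (0.31, 0.024), small coactivators of nuclear receptors, were higher. Among the corepressors, TBL1X (-0.39, adjusted p = 0.0088), a subunit of corepressor complexes, was lower. The chaperones FKBP4 (-0.47, adjusted p = 0.0036) and HSP90AA1 (-0.32, 0.043), which hold steroid receptors ready to bind hormone, were lower too. With the replicate block HSP90AA1 was not called (adjusted p = 0.069 by limma), and NRIP1 was (0.042). The coactivators NCOA1, NCOA2 and NCOA3 had log2 fold changes of -0.12, 0.01 and 0.13 and did not pass the test. The calls of KAT2B and FKBP4 held with any 1 library left out. TBL1X was lost without si-SAM68 replicate 3, PNRC1 without si-SAM68 replicate 1 or 3, and PNRC2 and HSP90AA1 in all such fits but that without si-CTRL replicate 1. The highest adjusted p of these genes in these fits was 0.15.

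Well-known target genes of the receptors were described list by list, and 14 of 55 tested (25.5%) were called, against 10.7% of all loci. Of these 4 were higher and 10 lower, against 4.47% and 6.23% of all loci, and the median log2 fold change of the 55 was -0.03. With a minimum mean of 50, 13 of 48 target genes and 2165 of 15034 loci were called. The lists were chosen with earlier results of these data known, so the shares are not an independent comparison. Of the 55, 52 had a mean of at least 10 in both groups, and ABCG1, APOE and CYP26A1 reached the minimum only through their si-CTRL level. Among the 6 target genes of the liver X receptors with a mean of at least 10 in both groups, SCD and ABCA1 were lower and none was higher. SCD, the stearoyl-CoA desaturase, had 7256, 7913 and 6060 normalized reads in si-CTRL and 4134, 4153 and 3719 in si-SAM68 libraries (log2 fold change -0.82, standard error 0.10, adjusted p = 0.0017 by limma). ABCA1, which exports cholesterol, was lower by -0.80 on the log2 scale (adjusted p = 0.012). ABCG1, another sterol exporter, had 17.5, 46.5 and 28.5 against 8.06, 11.04 and 6.70 normalized reads (log2 fold change -1.65, adjusted p = 0.034), with a si-SAM68 mean under the minimum. SREBF1 (0.03), LPCAT3 (0.03) and MYLIP (0.02), of the same list, did not pass the test.

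Among 9 tested genes of the retinoic acid receptors, TGM2, a transglutaminase, fell from 15555, 13018 and 13169 to 6796, 7382 and 6776 normalized reads (log2 fold change -0.99, standard error 0.09, adjusted p = 0.00031 by limma). DHRS3, which reduces retinal, was higher (0.84, adjusted p = 0.0099). Among 9 glucocorticoid receptor genes, TSC22D3 (GILZ) was higher (0.74, adjusted p = 0.0049), as was KLF9 (0.35, 0.036), while the phosphatase DUSP1 (-0.56, 0.0036) and the metallothionein MT2A (-0.28, 0.042) were lower. FKBP5, a gene strongly induced by glucocorticoids, had a log2 fold change of 0.07 and was not called. A list of 10 clock genes was set beside the REV-ERBs and RORs, and whether each is controlled by these receptors was not tested. Among them NPAS2 (-0.90, adjusted p = 0.0064), BHLHE41 (-0.56, 0.018) and CRY1 (-0.49, 0.0053) were lower, and ARNTL (-0.27, 0.20) and NFIL3 (-0.01) were not called. DBP was not called either (0.62, adjusted p = 0.13 by limma), but passed the thresholds of the study as higher. Of these 10 genes, 4 had a positive and 6 a negative log2 fold change. GREB1 (-0.57, adjusted p = 0.017) was the single call among 7 estrogen receptor genes. None of the 8 PPAR, 3 vitamin D receptor and 1 pregnane X or CAR genes tested had an adjusted p under 0.05 by limma, edgeR or, where it gave a value, DESeq2. Of these 12, CYP27B1 alone had an unadjusted p under 0.05 (0.045 by limma). With the replicate block KLF9 (0.055) and MT2A (0.068) were lost. ABCG1, KLF9 and MT2A were called in just 1 of the 6 fits with a library left out, that without si-CTRL replicate 1. ABCA1 was lost without si-SAM68 replicate 3, BHLHE41 without si-SAM68 replicate 1 or 2, and GREB1 without si-CTRL replicate 3 or si-SAM68 replicate 2, and the highest adjusted p in all these fits was 0.15.

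**Figure D5:**
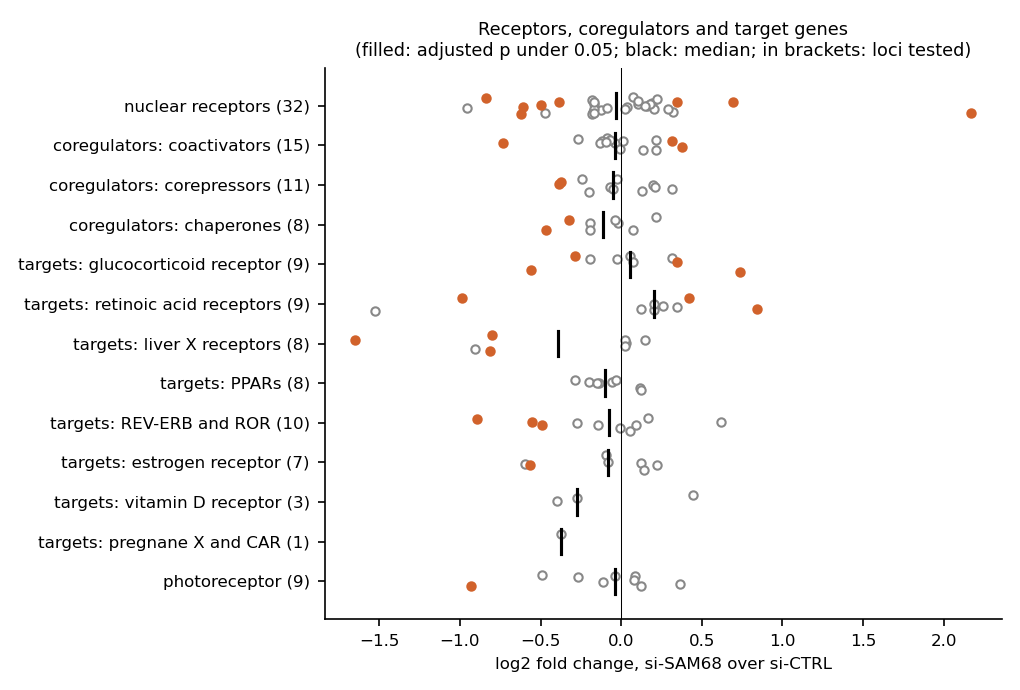
Log2 fold change (si-SAM68 over si-CTRL) of the tested receptors, coregulators and chaperones, target genes and photoreceptor genes, with filled points for an adjusted p under 0.05 and a black line at the median of each list. NR2E3 at 2.17 is the highest point of all lists, and called genes lie on both sides of 0 among the receptors, the coactivators and the targets of the glucocorticoid and retinoic acid receptors.

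Since NR2E3 is a photoreceptor factor, 30 photoreceptor genes were examined. Of these, 21 had a mean under 10, and 8 were at 0 in every library, ARR3, OTX2 and RAX among them. CRX, which activates photoreceptor genes with NR2E3, had 2.01 normalized reads in si-SAM68 replicate 1 and 0 elsewhere. NRL, which acts upstream of NR2E3 in rods, had 107, 140 and 126 in si-CTRL and 129, 109 and 106 in si-SAM68 libraries (log2 fold change -0.12). ROM1, a membrane protein of photoreceptor discs, was the only one of 9 tested genes with an adjusted p under 0.05, and it was lower (366, 422 and 394 against 230, 189 and 199.95 normalized reads, log2 fold change -0.93, adjusted p = 0.0023 by limma). This share of 11.1% is near the 10.7% of all loci. The cone gene GNAT2 had 27.5, 20.3 and 26.6 against 23.2, 33.1 and 23.5 normalized reads, so that its groups overlapped.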

How the data were processed

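RNA of MDA-MB-231 cells was sequenced as 3 si-CTRL and 3 si-SAM68 libraries, with groups and replicate numbers taken from the sample labels. The authors deposited 1 table whose values are a signal: reads counted on FAST DB loci (hg19) and divided by DESeq2 size factors. The submitters' processing notes name STAR 2.4.0. The labels name a stranded kit, but use of strand in counting is not given in the sources used here. Values were whole multiples (within 0.01) of 1 step in 100% of cases, so reads were recovered. No column belonged to another series.

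limma 3.58.1 (lmFit, eBayes with a trend) was fitted to log2(value + 1) of 18849 loci with a mean of at least 10, with Benjamini-Hochberg adjustment over all. Alternatives were pseudocounts of 0.1 and 5, other filters, TMM and quantile scaling, other eBayes settings, a replicate block, leaving out each library, and edgeR 4.0.16 and DESeq2 1.42.0 on recovered reads. Programs were tested on simulated counts. Libraries of the same number deviated together from the group means (correlations 0.105, 0.231 and 0.125, others at most 0.007). Deviations from a group mean cancel out within the group, so the low values of the other pairs are not independent of the higher ones. The numbers may pair the libraries, but this was not tested. The reported fit and the permutation test took the libraries as unpaired, and the replicate block took them as paired. Replicates differed by more than read sampling (chi-square per degree of freedom of at least 12.7), with the largest values, 390 and 393, in pairs with si-SAM68 replicate 2. These values include the rRNA precursor locus, which took 15.1% of the reads of that replicate, and its part in them was not separated. Separate preparations of the same RNA can also differ by more than read sampling, so these values do not show separate cultures.

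Members and gene lists were chosen with earlier results of these data known. Every member with a mean of at least 10 is given. From the other lists the 3 largest changes with an adjusted p under 0.05 are named. MT2A and the list genes without a call were named after their values were seen. Lengths and 3′UTRs are those of GENCODE 29, without use of its coordinates for hg19 loci. LCOR was not analysed here. Some genes of the lists enter the counts but are not reported here by name.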

Additional observations from a re-analysis of the deposited data

How the results depend on the processing

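NR2E3 (log2 fold change 2.03 to 2.24), KHDRBS1 (-4.66 to -4.56) and the single photoreceptor call kept direction and call in all 17 alternatives. Of the 8 receptors called at the adjusted p, 5 remained with no filter and 5 with eBayes without a trend. The number called was 7 with the replicate block, in which the pairing of libraries cost the calls of ESR2 and NR4A1 and added THRB. Under TMM scaling all 8 remained, and under quantile normalization 7. With 1 library left out the number ran from 2 (without si-SAM68 replicate 3) to 7. The receptors at the thresholds of the study, 6 in the reported analysis, ran from 4 to 6 with 1 library left out. Calls among coregulators and chaperones were 3 with eBayes without a trend, and 2 to 8 with 1 library left out. Target gene calls were 9 with eBayes without a trend, and 8 to 15 with 1 library left out. Over all loci, 2017 calls became 899 with eBayes without a trend, and 625 to 2839 with 1 library left out. Leaving out a library also leaves 2 in its group, which are assumed to vary like the others. Apart from those named here and beside the results, the block changed no call of a named gene. No rescaling moved the median log2 fold change of all loci by more than 0.01. No receptor past a threshold reversed its direction in any alternative. At 24 to 32 reads a library, the si-CTRL level of NR2E3 is known less well than that of most receptors.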

Other observations

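An unnamed locus of 1544 bases within PPARG, chosen after its values were seen, was higher in si-SAM68 cells, with a mean of 1299 ± 122 against 665 ± 39.9 (SD, n = 3) normalized reads (log2 fold change 0.96, adjusted p = 0.00080 by limma), and kept its call with each library left out. PPARG itself had a log2 fold change of 0.03. SYNE1, also chosen after its values were seen and whose locus overlaps 7918 bases of the untested ESR1 locus, had a log2 fold change of 0.48 (adjusted p = 0.024). With no filter on low values, ESRRG (log2 fold change 2.44, adjusted p = 0.054 by limma) and ESRRB (-1.51, 0.12) passed the thresholds of the study in opposite directions.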
